A study of Mus musculus with 7 samples.

Results

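DE-only H3K4me2 regions are places in the mouse genome where a peak of histone H3 dimethylated at lysine 4 was called in both libraries of the DE genotype and in neither wild-type library. They were found by joining all touching or overlapping peak intervals of 4 H3K4me2 peak lists on chromosomes 1 to 19. This gave 39395 regions, of which 432, or 1.10%, met the rule. The count rests on each of the 4 libraries: it was 720 without WT replicate 1, 1212 without WT replicate 2, 1550 without DE replicate 1 and 3379 without DE replicate 2. With every list shortened to the strongest 17103 peaks, the length of the shortest list, 1084 regions met the rule, and 263 of the 432 were among the places found. The regions were chosen by whether the caller listed a peak in each of the 4 libraries, in the same lists that give each region its strength, width and place, so membership and strength are described here without a test, and the absence of a wild-type peak is the choice itself and not a finding. "Not called" means that the peak caller listed no interval there. It does not mean that the mark was at 0.

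The cells were common monocyte progenitors (cMoPs), sorted from mouse bone marrow. The series covers variants of an enhancer 165 kb upstream of Zeb2 (written as -165 kb in the labels), and the genotypes are given as WT and DE without further description. Strain, age, sex, treatment and pooling of animals are not stated for either genotype, and no label says that the 2 libraries of a genotype came from separate animals. The assay was CUTAC, a form of CUT&Tag in which an antibody brings a transposase to a histone mark and tagmentation without added salt favours open DNA near it. All 4 H3K4me2 libraries carry batch number 2, and the 1 WT cMoP library for H3K4me3 carries batch number 1, so the mark and the batch cannot be told apart when they are compared.

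H3K4me2 lies at active and poised promoters and at enhancers, whereas H3K4me3 is concentrated at the starts of transcribed genes. cMoPs are marrow progenitors committed to the monocyte lineage. ZEB2 is a zinc finger repressor that binds E-boxes of the CACCTG kind, sites that E proteins also recognise. ID proteins pair with E proteins and keep them from binding DNA.

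The lists held 32411 peaks in WT replicate 1 (WT1), 28198 in WT2, 22013 in DE1, 17103 in DE2 and 6427 for H3K4me3. Of 12 cMoP marker genes, 11 had an H3K4me2 peak within 1 kb of an end of the gene in WT1, 12 in WT2, 11 in DE1 and 9 in DE2. Ms4a3 was the one without a peak in WT1 and Cx3cr1 the one in DE1, and Cx3cr1, Ms4a3 and Cd34 were without one in DE2. In the H3K4me3 list 8 of the 12 had a peak, and Kit, Cx3cr1, Cd34 and Spi1 had none. None of 13 mast cell, basophil and eosinophil genes had a peak in any list, and B cell genes had 1, 1, 2 and 1 of 14 in WT1, WT2, DE1 and DE2. Dendritic cell genes had 10, 10, 7 and 6 of 20 in the same order, and T, NK and innate lymphoid genes 3, 4, 3 and 2 of 20. Erythroid and megakaryocyte genes had 4, 5, 5 and 5 of 17. No share over all genes is set beside these counts. The part of the differences between the lists in the results below was not tested.

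The sequences that carry the gene-start members are shown first, for 5 members that cover at least 100 bases of a promoter window. Each window runs from 250 bases before to 50 after an annotated start and is printed 5′ to 3′ on the strand of the gene, from RefSeq, build GRCm38.p6 (mm10). Capitals mark E-boxes, CANNTG. Six4, a homeobox gene, has its window at chr12:73113196-73113495 on the minus strand, and the member covers 271 of its 300 bases. Tfcp2l1, a transcription factor of the grainyhead family, has its window at chr1:118627695-118627994 on the plus strand, and 104 bases are covered. Slc35c1, which carries GDP-fucose into the Golgi, has its window at chr2:92460469-92460768 on the minus strand, and all 300 bases are covered. Lrif1, which binds ligand-dependent nuclear receptors, has its window at chr3:106684737-106685036 on the plus strand, and 170 bases are covered. S100a8, one subunit of calprotectin, has its window at chr3:90668821-90669120 on the plus strand, and 198 bases are covered.
Six4: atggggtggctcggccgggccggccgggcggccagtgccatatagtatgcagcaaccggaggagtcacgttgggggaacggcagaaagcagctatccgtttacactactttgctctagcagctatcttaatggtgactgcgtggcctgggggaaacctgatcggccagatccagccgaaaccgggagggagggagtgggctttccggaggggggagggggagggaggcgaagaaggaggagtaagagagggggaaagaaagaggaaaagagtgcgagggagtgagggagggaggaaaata
Tfcp2l1: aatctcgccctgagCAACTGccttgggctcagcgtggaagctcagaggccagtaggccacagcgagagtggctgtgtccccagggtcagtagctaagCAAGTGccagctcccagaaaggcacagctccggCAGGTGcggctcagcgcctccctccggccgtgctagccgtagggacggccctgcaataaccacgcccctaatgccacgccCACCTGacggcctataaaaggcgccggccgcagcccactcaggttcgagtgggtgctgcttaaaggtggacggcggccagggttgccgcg
Slc35c1: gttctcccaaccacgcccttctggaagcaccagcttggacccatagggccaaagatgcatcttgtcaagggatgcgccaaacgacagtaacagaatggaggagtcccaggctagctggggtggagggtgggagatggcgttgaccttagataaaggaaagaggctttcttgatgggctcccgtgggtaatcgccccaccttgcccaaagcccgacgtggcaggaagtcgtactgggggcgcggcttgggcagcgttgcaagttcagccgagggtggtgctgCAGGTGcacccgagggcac
Lrif1: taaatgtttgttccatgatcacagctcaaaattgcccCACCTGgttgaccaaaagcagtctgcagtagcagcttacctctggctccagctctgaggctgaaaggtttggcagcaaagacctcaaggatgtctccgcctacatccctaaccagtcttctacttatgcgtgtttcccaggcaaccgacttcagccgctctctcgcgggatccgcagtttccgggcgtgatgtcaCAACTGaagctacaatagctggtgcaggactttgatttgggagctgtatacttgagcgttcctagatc
S100a8: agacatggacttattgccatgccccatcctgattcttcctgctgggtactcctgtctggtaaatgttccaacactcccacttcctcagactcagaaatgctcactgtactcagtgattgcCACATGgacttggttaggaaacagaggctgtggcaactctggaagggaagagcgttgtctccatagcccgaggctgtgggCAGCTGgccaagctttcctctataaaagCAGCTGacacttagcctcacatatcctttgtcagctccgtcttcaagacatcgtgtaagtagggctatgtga

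The Six4 window holds no E-box. The Tfcp2l1 window holds 4, of which 2 are the ZEB form, CACCTG on either strand. These counts are over the whole window, with the bases that the member does not cover. Slc35c1 holds 1, which is of the ZEB form, and Lrif1 holds 2, of which 1 is. S100a8 holds 3, and 2 of these are CAGCTG. Of the Tfcp2l1 E-boxes, only the CACCTG lies in bases that the member covers. The CACCTG of Lrif1 lies outside the covered bases. So neither the presence nor the kind of E-box is shared by these 5 windows.

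In all, 38 DE-only regions overlapped 40 of 31396 promoter windows of 300 bases, and 21 of them covered at least 100 bases of one. An E-box (CANNTG) was present in 29 of the 40 windows, 72.5% (95% Wilson interval 57.2 to 83.9), against 72.2% of all windows and 59.6% of windows called in all 4 lists. The ZEB form CACCTG was present in 20% against 20.5% of all windows, and CAGCTG in 15.0% against 16.3%. Both are E-boxes and so overlap the first count. Motifs were counted over the whole window, whatever part of it the region covered. The PU.1 core GAGGAA was in 30% against 28.2%, CCAAT in 32.5% against 37.3%, and the AP-1 motif TGANTCA in 7.5% against 7.84%. For each of these motifs, searched on both strands, the share of all windows lies inside the interval of the 40. The GC box GGGCGG was in 50% (35.2 to 64.8) of them, 36.0% of all windows and 72.3% of windows called in all 4 lists. Median GC content was 57.7% in the 40 windows, 53.0% over all windows, 60.3% in windows of regions called in both WT and neither DE list (WT-only) and 63.3% in windows called in all 4 lists. CpG density had the same order, with medians of 45.0 per kb in the 40 windows, 23.3 over all windows, 66.7 in WT-only windows and 80 in those called in all 4.

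DE-only regions lay away from gene ends more often than the regions called in all 4 lists. Of the 432, 151 (35.0%, Wilson interval 30.6 to 39.6) were within 1 kb of either end of a protein-coding gene, 185 (42.8%, 38.2 to 47.5) were inside a gene and farther from its ends, and 96 (22.2%, 18.6 to 26.4) were between genes. In 12928 regions called in both DE lists and at least 1 WT list, these shares were 65.3%, 24.0% and 10.7%. The gene-end share was 67.3% in regions called in all 4 lists, 45.4% in those called in both DE lists and WT2 only, and 34.8% in those called in both DE lists and WT1 only, which lies inside the DE-only interval. In 3456 WT-only regions they were 36.2%, 35.7% and 28.1%, so the gene-end share of the DE-only and the WT-only regions lay within the counting interval of the former. Over all 39395 regions 39.6% were at a gene end, 33.3% inside a gene and 27.1% between genes. The reference table gives the bounds of each gene and not its exons, so exon, intron and UTR were not assigned. These intervals cover counting error only, and regions are not replicates, so no p is given. The gene-end share of DE-only regions was 20.5% when peaks within 500 bp were joined and 49.2% when a call needed 50% cover of the region.

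**Figure D1:**
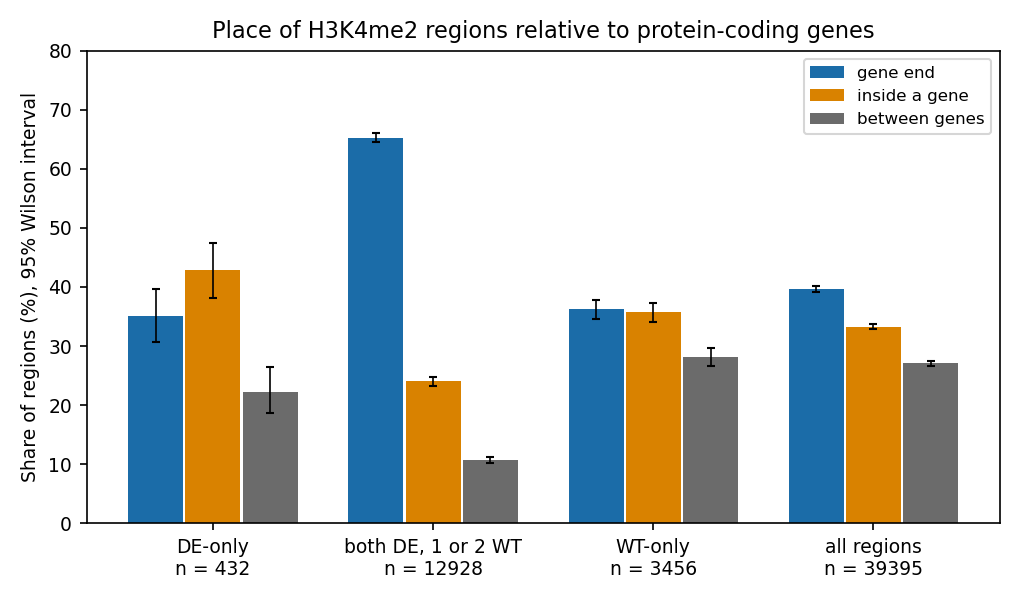
Place of H3K4me2 regions in percent of each set, for DE-only regions, regions called in both DE and at least 1 WT list, WT-only regions and all regions, with 95% Wilson intervals. At gene ends the DE-only share is 35.0% and that of regions called in both genotypes is 65.3%.

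Few DE-only regions held a peak of H3K4me3, the mark of active gene starts, in WT cMoPs. It was called in 12 of 432, 2.78% (1.6 to 4.79), against 36.3% of regions called in both DE and WT, 6.13% of WT-only regions and 14.5% of all regions. The regions called in both genotypes were mostly called in all 4 lists, where the share was 38.9%. In regions called in both DE lists and 1 WT list it was 5.17% with WT1 (3.16 to 8.36) and 7.5% with WT2 (5.82 to 9.61), nearer to the DE-only share. The difference was present within each place. At gene ends the share was 3.31% of the DE-only regions and 44.0% of those called in both genotypes, inside genes 2.7% and 26.2%, and between genes 2.08% and 12%. The H3K4me3 library was WT and was 1 library, so the mark in DE cells is not known from it. The rule leaves out places with an H3K4me2 call in WT, so a low share of WT H3K4me3 is tied to the rule. The share of DE-only regions was 1.18% without DE replicate 2, 5.78% without WT replicate 2 and 14.7% when a call needed 50% cover of the region.

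The DE-only regions were weak members of the DE lists. Peaks of each DE list were ranked by the caller's −log10 p as a percent of the list, 0 for the strongest. The median rank of the DE-only regions was 71.7% in DE1 and 75.6% in DE2. WT-only regions, ranked in the same way in the WT lists, had medians of 60.3% in WT1 and 66.6% in WT2. When the 13360 regions called in both DE lists, 33.9% of all regions, were put into 10 classes of 1336 by their mean rank, the number of DE-only regions from the strongest class to the weakest was 0, 1, 1, 5, 7, 23, 35, 59, 106 and 195. They were 14.6% of the weakest class and 3.23% of all 13360. In the 5 weaker classes, 35.4% of 418 DE-only regions were at a gene end and 2.63% held H3K4me3, against 59.4% and 22.1% of 6262 regions called also in WT. In the 2 weakest classes the gene-end shares were 35.5% and 55.9%, and the H3K4me3 shares 2.33% and 15.9%. In the weakest class alone, with 195 DE-only regions and 1141 called also in WT, the gene-end shares were 35.9% and 52.6%. The H3K4me3 shares there were 2.05% and 13.4%, and the median widths 240 and 338 bp. Within the pooled classes the DE-only regions lay more in the weakest class, so their ranks were not matched. The part of rank and width in these differences was not tested.

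**Figure D2:**
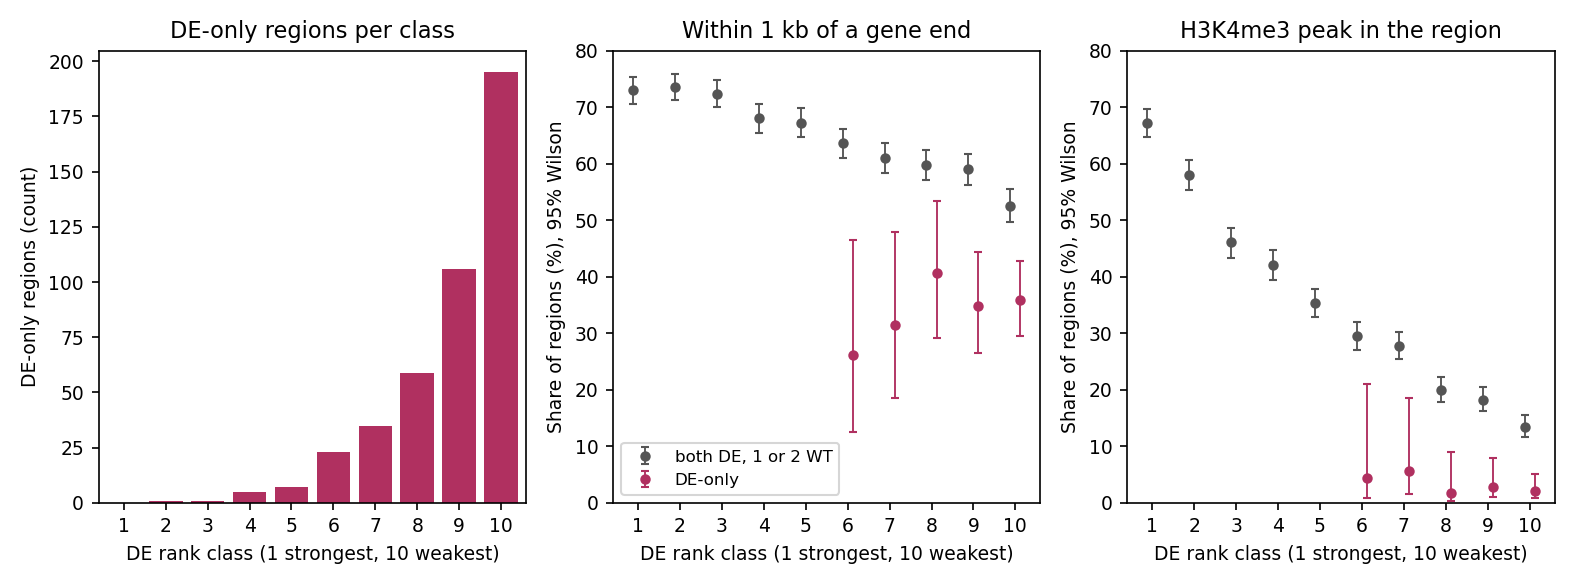
Number of DE-only regions (left), and share of regions at a gene end (middle) and with an H3K4me3 peak (right), in percent with 95% Wilson intervals, by class of mean rank in the DE lists from 1, strongest, to 10, weakest; shares are drawn for classes with at least 20 regions of a set. In class 10, 35.9% of DE-only regions are at a gene end against 52.6% of regions called also in WT; classes 1 to 5 hold 14 DE-only regions in all.

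Median width of the joined region was 262 bp, with a range of 123 to 1579 bp and quartiles of 200 and 334 bp. It was 422 bp for regions called in both genotypes, 177 bp for WT-only regions and 209 bp for all. Peak width differed by library, with list medians of 152 bp in WT1, 212 in WT2, 249 in DE1 and 246 in DE2. The widths of DE-only and WT-only regions are thus not on a like basis. The strongest DE peaks of the DE-only regions had medians of 199 bp in DE1 and 192.5 bp in DE2, under those of the DE lists. A wide region is more easily touched by a peak of any list, so width is tied to the rule. The caller's fold over background, the authors' own value for each peak, had a median of 4.83 in DE1 (1.33 to 11.9) and 4.54 in DE2 (1.37 to 11.7). A −log10 q of at least 5 in both DE lists was reached by 20 regions, and 195 had a value under 2 in at least 1 of them. The DE1 fold was the higher in 232 of 432. The Spearman correlation of −log10 p between DE1 and DE2 was 0.184 across the 432 regions and 0.716 across the 13360, given as a description. The 432 cover a narrower range of strength, and its part in the lower value was not tested. The summits of the 2 DE peaks were within 50 bp of each other in 221 regions and over 200 bp apart in 27.

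**Figure D3:**
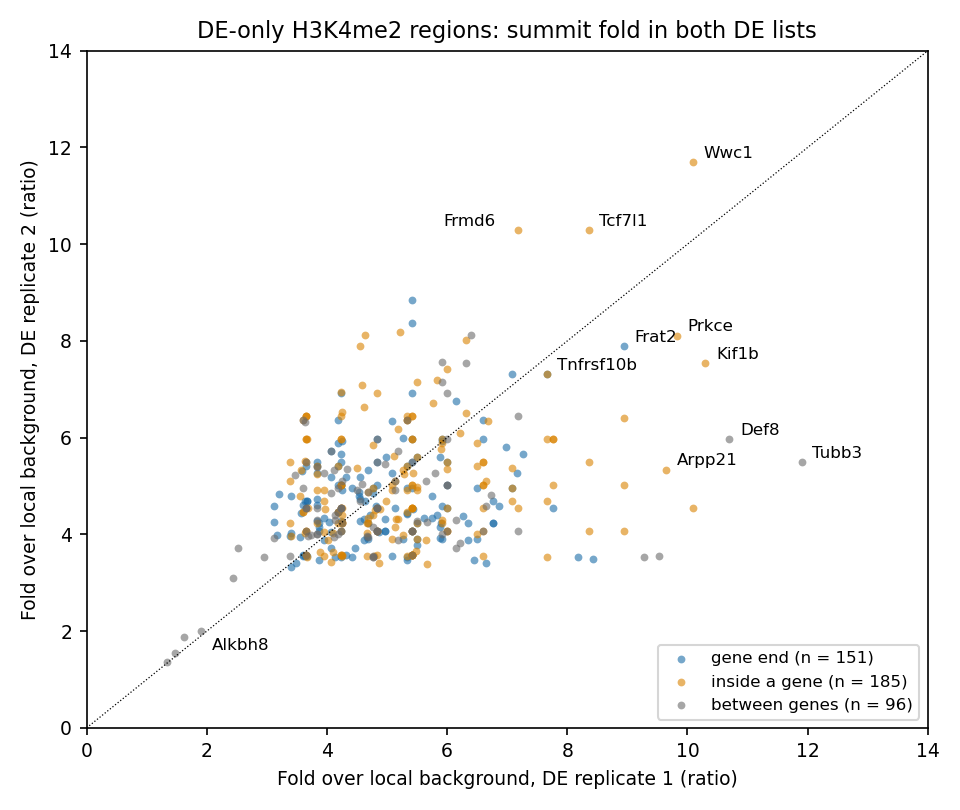
Caller's fold over background in DE1 and DE2 for each of the 432 DE-only regions, 1 point per region, coloured by place; the dotted line marks equal folds. Medians are 4.83 and 4.54, and the 4 points under a fold of 3 in both lists are the regions nearest to Alkbh8.

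The caller's fold and p allow the number of fragments at each summit to be solved. It had a median of 9 in DE1 (5 to 208) and 10 in DE2 (6 to 266), with 5 and 43 regions having more than 1 solution. The fewest fragments with which a peak was called over the genome background were 3 in WT1, 5 in WT2, 5 in DE1 and 6 in DE2. From the same values the depth of each library relative to its control was 0.477, 1.04, 1.2 and 1.47, which compares the libraries only if the lists share a control. On that assumption, the same yield of fragments would give a median of 3.37 in WT1 and 7.34 in WT2, and 150 of the regions would fall under the fewest of WT1 and 19 under the fewest of WT2. If the shortest interval of each list, 74, 91, 109 and 109 bp, is taken as its fragment length, the medians are 2.29 and 6.13 and the counts 356 and 99. By either reckoning more of the regions fell under the fewest fragments of WT1 than of WT2. The yield was taken from the DE summits that the rule chose as called, which favours high values. A value over the fewest does not mean that a WT peak would be called. The counts therefore set no limit on the part of depth in the choice of the 432, which was not tested.

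The strongest DE-only region lay inside Wwc1, which encodes KIBRA, a scaffold upstream of the Hippo kinases. At chr11:35943888-35944291 its fold was 10.1 in DE1 and 11.7 in DE2, from 16 and 23 fragments. The nearest WT1 peak was 24592 bp away and the nearest WT2 peak 105238 bp. It was the only one of the 432 in the strongest 2 rank classes. A region in a second gene of that pathway, Frmd6, which encodes a FERM domain protein, was the sixth strongest, at chr12:70877751-70877897 with folds of 7.18 and 10.3. WT peaks were 33314 and 51656 bp from it. Both regions were inside the gene and far from any WT peak.

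The next regions by strength were also inside genes, beside one near Alkbh8. Prkce, the epsilon isoform of protein kinase C, had a region at chr17:86353774-86353949 with folds of 9.82 in DE1 and 8.11 in DE2, 185988 bp from the nearest end of the gene. Tcf7l1, an HMG-box factor that represses Wnt targets, had one at chr6:72636189-72636489 with folds of 8.36 and 10.3. Kif1b, a kinesin motor, had one at chr4:149180415-149180746 with folds of 10.3 and 7.55. Its WT peaks were 6454 and 6464 bp away, and a second DE-only region of Kif1b followed at chr4:149181074-149181478 with folds of 5.5 and 7.16. So Kif1b held a pair of close regions, without a WT peak between them.

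Gene ends entered at the seventh place. Frat2, which binds the kinase GSK3, had a region 318 bp from the end of the gene at chr19:41846291-41846683, with folds of 8.95 and 7.89. WT peaks lay 505 bp from it in WT1 and 378 bp in WT2. Tnfrsf10b, the receptor of the death ligand TRAIL, had one that touched an end of the gene at chr14:69767467-69767683, with folds of 7.66 and 7.31. There the WT2 peak was 386 bp away and the WT1 peak 33645 bp away. Gsr, glutathione reductase, had an intragenic region at chr8:33656161-33656359 with the same folds of 7.66 and 7.31 and a second at chr8:33654016-33654244, near an end of the gene, with 6.59 and 5.97. The Frat2 and Gsr regions had peaks of both WT lists closer by than the Hippo genes had, and the Tnfrsf10b region only of WT2.

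The remaining regions of the strongest 20 were nearest to Def8, Mrpl44, Arpp21, Rgmb, Tkt, Ubl3, Tubb3, Kif26b, Nek8, Ly6c1 and Tmcc3, beside one near Alkbh8. Tubb3, a beta-tubulin, and Def8 lie side by side on chromosome 8, with regions at chr8:123425951-123426296 and chr8:123434131-123434482. The Tubb3 region had a fold of 11.9 in DE1 and 5.49 in DE2, and the Def8 region 10.7 and 5.97, so both were stronger in DE1. The region nearest to Mrpl44 lay inside the neighbouring gene Wdfy1. In Tkt, transketolase of the pentose phosphate pathway, a region of 546 bp had folds of 5.89 and 5.77 from 20 and 24 fragments. WT2 had a peak 1252 bp from it.

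Of 413 nearest genes, 15 had 2 or more DE-only regions. Rgmb, a co-receptor of bone morphogenetic proteins, had 3 at chr17:15825515-15825795, chr17:15829300-15829808 and chr17:15830771-15831018. The one nearest to the start had folds of 7.08 in DE1 and 7.31 in DE2, and the other two had 5.92 and 4.29, and 3.65 and 3.58. The nearest WT peak was 749 bp from the one farthest from the start, and 2546 and 4017 bp from the others. Ccr10, Six4, Fgf12, Myo18b and Nkg7 were nearest to 2 each. Of these, 1 of Six4 lay inside Mnat1, 9587 bp from an end of Six4, and 1 of Ccr10 lay inside Cntnap1. The 2 regions of Fgf12, a fibroblast growth factor homologue, were at least 53966 bp from any WT peak.

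The regions nearest to Alkbh8 had the lowest folds of the 432 in both DE lists. Alkbh8, a tRNA methyltransferase, was nearest to 4 regions between 310696 and 316597 bp away on chromosome 9. Their folds were 1.33 to 1.91 in DE1 and 1.37 to 2.0 in DE2, but from 94 to 208 and 157 to 266 fragments. These are high pileups over a high local background, and they were the only 4 regions with a fold under 3 in both DE lists. The 3 regions between genes near Snrpn, the imprinted gene of a small nuclear ribonucleoprotein, had folds of 2.52 to 3.73 in DE1 and 3.54 to 3.99 in DE2 from 14 to 23 and 16 to 22 fragments. No filter for repeats or blacklisted places was applied here, and its effect was not tested.

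Of the 151 regions at gene ends, 102 were nearest to a start, 11 to an end, and for 38 the strand of the gene is not in the promoter table. They belonged to 150 genes. A WT peak lay within 1 kb of an end in 120 of these, and 30 genes, 20% of them, had none. Peaks called in only 1 DE list were not counted at these ends. None of the 30 had an H3K4me3 peak there, against 51 of all 150, which include the 30. By the Wilson interval a count of 0 allows a share of up to 11.4%. The 30 were chosen for having no WT H3K4me2 peak at their ends, and the H3K4me3 list is also WT. The count of 0 is thus tied to that choice and is not a finding about these genes. In 28 of the 30 no WT peak was within 1 kb of the region itself, and in 17 none was within 10 kb. Six4 and Adgrl3 were the 2 with a nearer one, 310 and 303 bp away.

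A few of the 30, named after their values were seen, are described here for their known roles. S100a8, abundant in neutrophils and monocytes, had a region over its start at chr3:90668923-90669326 with a fold of 5.34 in DE1 and 4.42 in DE2, from 15 and 15 fragments. WT1 had a peak 1484 bp away, and the nearest WT2 peak was 53298 bp away. Ptprcap, which associates with the phosphatase CD45, had folds of 5.41 and 8.37 at chr19:4154558-4154771. Nkg7, a cytotoxic granule protein, had 2 regions near its end at chr7:43437536-43438080 and chr7:43438407-43438564, with folds of 6.87 and 4.58, and 4.06 and 5.18. Cd6, a receptor of T cells, had 6.76 and 4.24 at chr19:10829867-10830124. Of the 20 listed T, NK and innate lymphoid genes, Nkg7 was the only 1 nearest to a DE-only region, and Cd6 and Ptprcap are not in that list. The part of other cell types in these calls was not tested.

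Others of the 30 are known from other tissues or from housekeeping roles. Olig3 is a neural factor with folds of 5.75 and 4.34 and its nearest WT peak 170808 bp away, and Actn2 is the alpha-actinin of muscle, with folds of 5.34 and 5.42. Tfcp2l1 had 5.92 and 5.98 at a start 39476 bp from any WT peak, and Lrif1 7.77 and 4.54 at one 36524 bp away. Zmpste24, the protease that matures lamin A, had 3.59 and 5.31, and Clca3b 5.62 and 4.33. The rest were Rgmb, Rab7b, Cdcp1, Borcs7, Zfp85, Slc16a12, Mgarp, Rusc2, Mpzl3, Cnmd, Aadat, Plbd1, Sil1, Lipo2, Zfp770, Enkd1, Cd320 and 3830406C13Rik.

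The 12 regions with an H3K4me3 peak were nearest to Alkbh8 (2 regions), Ly6c2, Macroh2a1, Atpif1, Ptbp1, Fbxo36, Diaph1, Rps15a, Rpl17, Grb2 and Fndc3b. Ly6c2, the monocyte surface antigen, had a region 1063 bp from its start at chr15:75110797-75111002, with folds of 6.31 in DE1 and 6.52 in DE2. Macroh2a1, a histone variant gene, had 5.83 and 7.2, and Atpif1, an inhibitor of ATP synthase, 10.1 and 4.54. Rps15a and Rpl17 encode ribosomal proteins. In 9 of the 10 genes other than Alkbh8, both WT lists had a peak within 1 kb of the region, the exception being Rps15a, 1370 bp from the nearest WT1 peak. The region of Fndc3b was the weakest of all 432.

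Genes of 22 lists of cell types and pathways were nearest, within 100 kb, to 25 regions. Of 421 listed genes, 342 were nearest to some H3K4me2 region, and 23 of these, 6.73%, were nearest to a DE-only one. Over all genes nearest to some region it was 388 of 13993, 2.77%, and 1.88% of all 20665 protein-coding autosomal genes. Several lists were drawn up with the strongest regions known, and without the 5 lists on TNF receptors, Wnt, Hippo, glutathione and protein kinase C the share was 12 of 239 genes, 5.02%. A gene with many regions is more readily nearest to a DE-only one, and the number of regions per gene was not matched, so the difference from 2.77% is a description.

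The monocyte list had the most, 5 of 25 genes, and 6 of its genes were nearest to a WT-only region. There were 3456 WT-only regions against 432 DE-only ones, and the share of all genes nearest to a WT-only region was not computed. Ly6c1 had a region between genes, 21651 bp from its start at chr15:75070572-75070909, with folds of 7.18 in DE1 and 6.45 in DE2. Ly6c1 and Ly6c2 are near-identical copies, and how reads that fit both were placed is not stated. Nr4a1, a nuclear receptor needed by patrolling monocytes, had folds of 4.76 and 4.95 inside the gene. F13a1, coagulation factor XIII, had 4.24 and 3.58. These 2 were at places 226 and 329 of the 432 by strength.

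The Wnt, Hippo, glutathione and protein kinase C lists were drawn up with the strongest regions known, so their counts are not findings. Over all genes nearest to some region, 2.77% were nearest to a DE-only one. The Wnt list had 4 of 23 genes, and 9 of its genes were nearest to a WT-only region, a count without a background share. Beside Tcf7l1 and Frat2 these were Dvl3, a dishevelled protein, with folds of 4.83 and 5.97 at 573 bp from its start, and Tle1, a Groucho corepressor, with 4.07 and 4.04. The Hippo list had Wwc1 and Frmd6, 2 of 22. The glutathione and oxidative burst list had Gsr and Txn1, thioredoxin, 2 of 21, and Txn1 had 5.79 and 5.26. The list of protein kinase C and the MAP kinases had Mapk3, ERK1, with 6.0 and 6.93, and Prkcb, with 8.18 and 3.53, 2 of 24, since the region inside Prkce lies over 100 kb from an end.

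ZEB2, E proteins and ID proteins had 2 of 17 genes. Smad3, a transducer of TGF-beta, had folds of 4.86 in DE1 and 3.4 in DE2, and its WT2 peak was 124 bp away. Cbfa2t3, the corepressor ETO2, had 5.18 and 3.88, 2130 bp from its start, with WT peaks 427 and 381 bp away. Zeb2 itself was not among the nearest genes. The granule list had S100a8, the stem cell list Hoxa9 with 4.69 and 4.34 and a WT2 peak 2 bp away, the cytokine receptor list Il17ra with 4.76 and 3.53, and the housekeeping list Gapdh with 4.1 and 4.03. No listed gene was nearest to a DE-only region within 100 kb in 10 lists, those of dendritic, erythroid and megakaryocyte, mast cell, B cell, PU.1 and C/EBP, interferon, Toll-like receptor, antigen presentation, chromatin and cell cycle genes. Over all genes nearest to some region, 2.77% were nearest to a DE-only one. These lists hold at most 27 genes each, so a count of 0 is near that share. From 0 genes (B cell list) to 11 (chromatin list) of each were nearest to a WT-only region, a count without a background share. Beyond 100 kb, Maf of the PU.1 and C/EBP list was nearest to a region 149454 bp away, with folds of 5.41 and 4.06, and Mecom of the stem cell list was nearest to another.

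**Figure D4:**
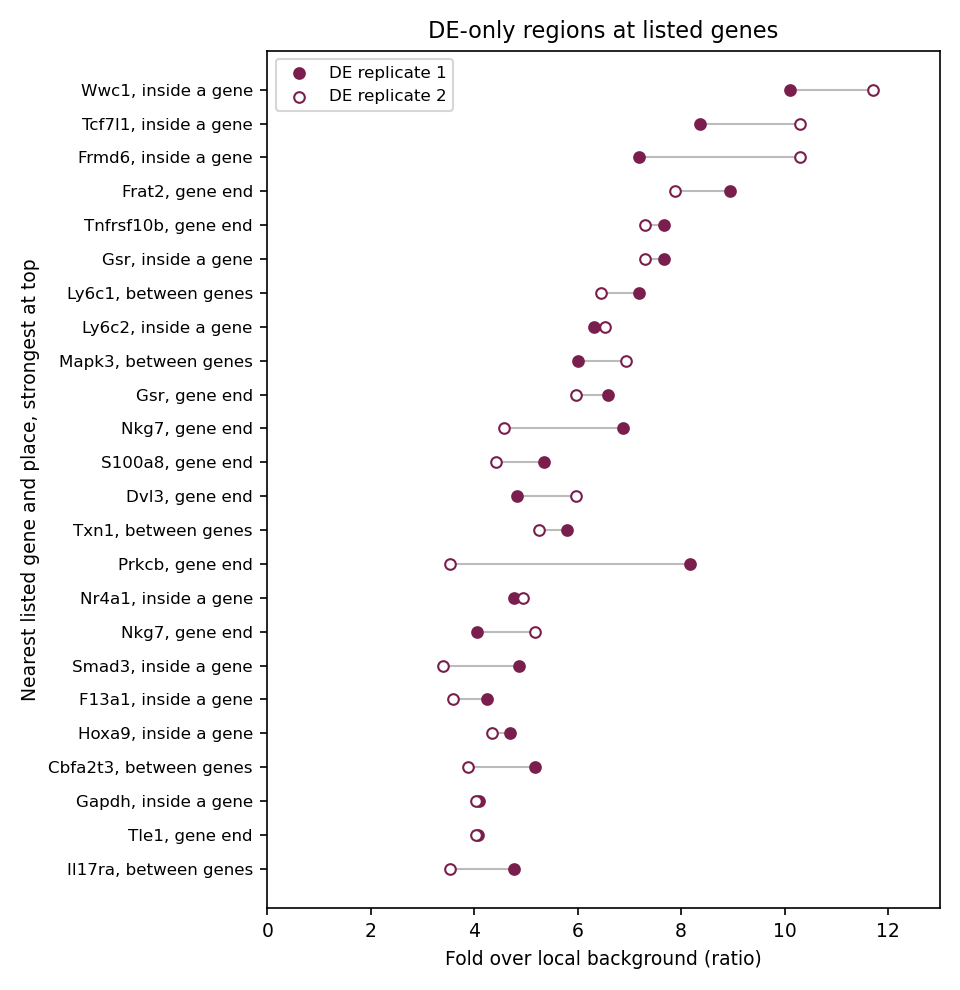
Caller's fold in DE1 and DE2 for 24 DE-only regions nearest to a listed gene, 1 row per region with the strongest at the top, filled points for DE1 and open points for DE2. The values run from 3.4 for Smad3 in DE2 to 11.7 for Wwc1 in DE2.

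Many of the DE-only regions lay next to WT peaks. The nearest WT peak was at a median of 754 bp, within 500 bp of 181 regions, 41.9%, and farther than 10 kb from 100, 23.1%. One lay within 500 bp of 66.9% of the regions at gene ends, 35.1% of those inside genes and 15.6% of those between genes. The median gaps were 339, 911 and 7300 bp. A region called in all 4 lists was within 500 bp of 113. For comparison, 778 of 3456 WT-only regions, 22.5%, had a DE peak within 500 bp. The WT lists hold 32411 and 28198 peaks and the DE lists 22013 and 17103. List length was not matched, so the shares of 41.9% and 22.5% are not on a like basis. So regions at gene ends were mostly flanked closely by a WT peak, and regions between genes mostly were not. Few were near each other, 34 within 10 kb of another.

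**Figure D5:**
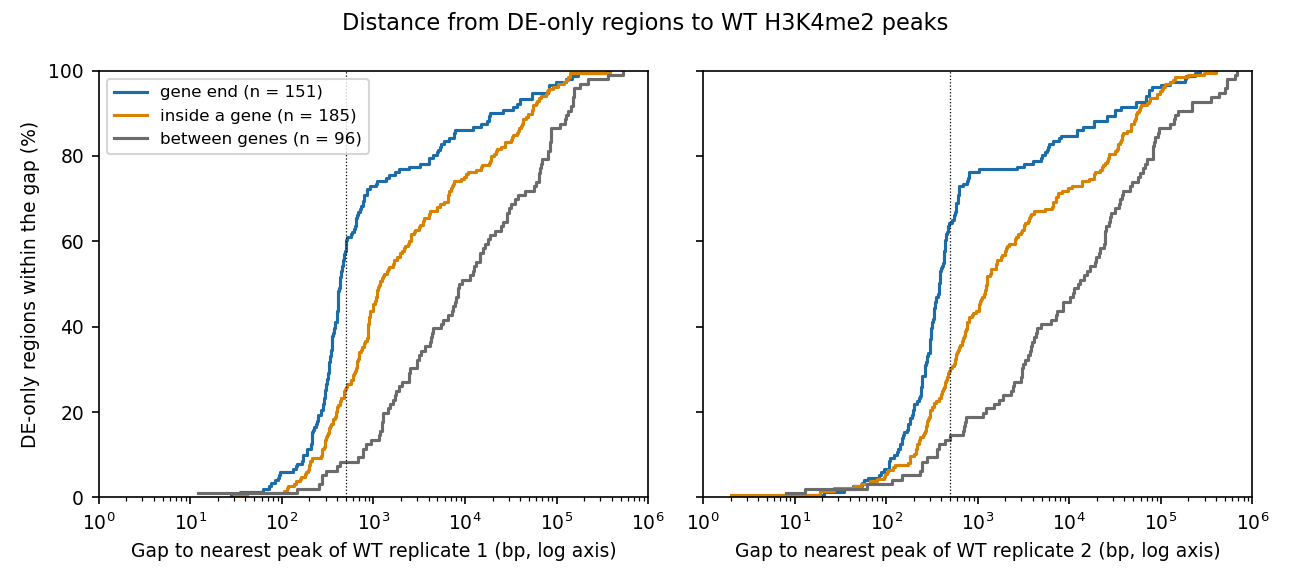
Cumulative percent of DE-only regions, by place, against the gap to the nearest peak of WT1 (left) and of WT2 (right), in bp on a log axis; the dotted line marks 500 bp. At that line the curve for gene ends stands at 57.6% for WT1 and 64.2% for WT2, and the curve for regions between genes at 8.33% and 13.5%.

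The widest region, 1579 bp at chr11:106945653-106947231, was nearest to Smurf2, a ubiquitin ligase of the TGF-beta pathway, with folds of 9.53 in DE1 and 3.56 in DE2. Its width came from DE1, where the peak was 1546 bp wide, against 170 bp in DE2, and the summits were 558 bp apart. The next were at Vmn1r221, a vomeronasal receptor, with 864 bp, Ercc6l2 with 712 bp, Rab44 with 644 bp, Med26, a Mediator subunit, with 624 bp, Otulinl with 617 bp, Ints9, an Integrator subunit, with 612 bp, and Slc35c1 with 604 bp. Their folds ran from 4.76 to 6.59 in DE1 and 4.91 to 6.36 in DE2.

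The regions were spread over all 19 autosomes, from 0.799% of the regions on chromosome 18 and 0.846% on chromosome 7 to 1.65% on chromosome 15 and 1.66% on chromosome 19. Just inside the rule were Fndc3b, with −log10 q of 1.01 in DE1 and 1.09 in DE2, Accsl with 5.33 and 1.01, Plppr3 with 4.18 and 1.01, Marchf6 with 1.03 and 2.9, and 3830406C13Rik with 1.03 and 2.07. Just outside were regions that had a WT2 peak with a −log10 q of 1.01 and a fold of 3.76, at Ccdc93, Aak1, Dok3, Zfp608 and Ahnak. Their DE1 folds of 9.17, 6.34, 6.65, 5.64 and 5.34 lay within the range of the 432. In all, 1037 regions were called in both DE lists and 1 WT list, 747 of them in WT2 and 290 in WT1, and in 105 the WT −log10 q was under 2.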

How the data were processed

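CUTAC libraries of H3K4me2 in cMoPs (2 WT, 2 DE) and of H3K4me3 in WT cMoPs (1 library) were used; of the 7 samples listed, the peak lists of 5 were analysed, and the IgG and MDP samples were not analysed here. Per the submitters' processing notes, the tools were Trimmomatic, Bowtie2, SAMtools, Picard and MACS2 2.2.9.1 with build mm10; their settings and the control used for peak calling are, for these lists, not given in the sources used here. The authors' deposited narrowPeak lists give per peak a score, a fold over background (a ratio), a −log10 p and a −log10 q, and a summit offset from the start in bp (another number). Peaks were called per library. The track line of the DE replicate 1 list names DE-2; its sample was taken from the series record.

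Touching or overlapping intervals on chromosomes 1 to 19 of the 4 lists were joined, and a region counted as called in a list with at least 1 bp of overlap. Genes were the 21887 protein-coding genes of RefSeq GRCm38.p6 on autosomes, X and Y; a gene end is within 1 kb of either bound, and strand was known for 79.9%. Shares carry 95% Wilson intervals, which cover counting error only. Fragments at a summit were solved from the fold and p (pileup within 0.01 of a whole number of fragments). No p-value was computed, because the rule used the same contrast and libraries are 2 per genotype. The members and gene lists were chosen with earlier results of these data known, the TNF receptor, Wnt, Hippo, glutathione and protein kinase C lists with the strongest members in view. Genes named are the 20 strongest, the 8 widest, the 12 with H3K4me3, up to 10 with repeated regions, listed genes (up to 3 per list), 5 on either side of the rule's limit, and, chosen after their values were seen, the 30 gene-end genes without a WT peak and the remaining listed genes, of which 1 is not reported here. Checked on simulated data, the region rule found 200 of 200 planted regions among 2000, and 99.5% of 600 summits gave the right number of fragments. The planted regions lay apart from other peaks, unlike many in the data. The summits were made with the formula that was then solved, at the background and fragment value of DE1. The check is thus of the code, and not of the caller's model or of the other lists. Python 3.11.15, numpy 2.4.6, pandas 2.3.3, scipy 1.17.1 and matplotlib 3.10.9 were used.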

Additional observations from a re-analysis of the deposited data

Results flagged for a closer look

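On chromosome X, outside the autosomes used for the report, 21 of 1536 regions were called in both DE lists and neither WT list, 1.37%, above the 3 that a count of 0 allows, a low bar. The share on the autosomes was 1.10%, and the difference was not tested. Chromosome Y had 3 of 84 and unplaced scaffolds with the mitochondrial genome 2 of 103. Those on X included 3 nearest to Bcor, a corepressor of BCL6, with DE1 folds of 4.76, 5.41 and 3.65 and DE2 folds of 5.97, 4.54 and 5.97. Mid1 had 2, with DE1 folds of 6.45 and 4.23. Btk, the kinase of B cell receptor signalling that monocytes also use, had 1 inside the gene with folds of 3.65 and 5.02.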

How the results depend on the processing

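The count of 432 depended on the processing. With a −log10 q of at least 5 in all 4 lists it was 99, with the limit in the DE lists only 20, with lists of equal length 1084, after joining peaks within 500 bp 258, with 50% of the region to be covered 1048, and with no WT peak allowed within 500 bp 251. Gene-end shares under these were 45.5%, 25%, 47.0%, 20.5%, 49.2% and 19.9%, H3K4me3 shares 6.06%, 10%, 4.89%, 1.16%, 14.7% and 1.59%, and median widths 345, 292, 307, 276, 354 and 251 bp. The share inside a gene was 55% with the DE limit, 35.2% at equal length, 34.4% at 50% cover and 47.8% without near WT peaks. Equal length kept 263 of the 432, 50% cover 351 and joining 239. Leaving out one library each gave counts of 720 (WT1) to 3379 (DE2), with 1212 without WT2 and 1550 without DE1, gene-end shares of 25.5% to 42.1%, shares inside a gene of 39.4% to 41.2%, H3K4me3 shares of 1.18% to 5.78% and widths of 155 to 278 bp, the H3K4me3 share being highest without WT2 and lowest without DE2. A gene-end window of 500 bp gave 20.6% and one of 2 kb 48.8%. H3K4me3 within 500 bp gave 11.6% and 50% cover of the region 1.39%. The causes were not tested. Adding chromosome X (453), and, as an alternative chosen after seeing the data, leaving out the 4 regions of low fold (428), moved no share beyond its interval. No paired analysis was possible because the results come from no test. How far depth limits the WT calls was not tested. The fragment yield of the called DE summits was used, with a shared control assumed. Of the 432, 150 would then lie under the fewest fragments of WT1 peaks over the genome background and 19 under those of WT2. With the shortest interval of each list taken as its fragment length, the counts were 356 and 99. The yield comes from summits that the rule chose, so these counts set no limit on the part of depth.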
